A study of Mus musculus with 2 samples.

Results

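Liver sinusoidal endothelial cells line the capillaries of the liver and clear waste molecules from blood. Peaks of the transcription factor GATA4 were described at 9 genes for their scavenger and surface receptors: Stab1, Stab2, Lyve1, Mrc1, Clec4g, Fcgr2b, Scarf1, Oit3 and Gpr182. The genes were chosen by name from the GENCODE mouse release 21 annotation, which holds 21938 protein-coding genes on chromosomes 1 to 19, X and Y. The choice was made with earlier results of these data known. A peak was linked to a gene where its summit lay in the gene or within 10 kb of it. Such a link is one of distance and does not show that the peak acts on that gene. All 9 genes had at least 1 such summit, and together they had 43 of the 24050 peaks analysed.

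The assay was ChIP-seq, in which DNA bound by a protein is pulled down with an antibody, here against GATA4, and sequenced. The tissue was liver of healthy adult mice. There was 1 group of 2 samples, given as biological replicates 1 and 2. The labels give the mice's age as unknown and their sex as not collected, and name no strain, allele or treatment. Both samples carry the same tissue and donor identifiers, so differences between them may be purely technical. Whole liver mixes hepatocytes, endothelium, macrophages and other cells, so the cell type in which a peak arose cannot be told apart. Peak lists hold no expression values either, so the endothelial name of these genes could not be checked here. The sequencing depth is unknown. Replicate 1's own list held 4287 peaks on these chromosomes and replicate 2's 26314. The optimal list was made by the authors from both replicates. A peak's rank is its place in that list by the authors' signal value, with 1 the strongest.

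The sinusoidal lining is fenestrated and has no continuous basement membrane. Its cells take up modified lipoproteins, hyaluronan, collagen fragments, glycoproteins and small immune complexes through endocytic receptors, several of which serve as markers of the cell type. GATA4 is a zinc-finger factor known for its role in the identity of this endothelium, and hepatocytes also express it. It recognises WGATAR (W stands for A or T, R for A or G). ETS factors, a family with many endothelial members, share the core MGGAAR (M stands for A or C).

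The sequences show which of these letters lie at the summits. They cover 50 bp to each side of the summit of each gene's strongest peak, and of some further peaks of rank 1000 or better, which were added after the ranks were known. They are mm10 sequence, read 5′ to 3′ on the gene's own strand. Runs of 6 capitals are WGATAR or MGGAAR on either strand, and runs of 4 capitals are a GATA core with other flanking bases.
Stab1, start site, rank 303, chr14:31168642-31168739, minus strand: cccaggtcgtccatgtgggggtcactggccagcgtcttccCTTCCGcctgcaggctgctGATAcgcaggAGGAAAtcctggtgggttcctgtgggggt
Stab2, intron 3, rank 253, chr10:86992729-86992829, minus strand: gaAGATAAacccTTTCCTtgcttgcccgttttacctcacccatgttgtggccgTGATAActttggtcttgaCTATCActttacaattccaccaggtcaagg
Stab2, intron 3, rank 555, chr10:86990800-86990900, minus strand: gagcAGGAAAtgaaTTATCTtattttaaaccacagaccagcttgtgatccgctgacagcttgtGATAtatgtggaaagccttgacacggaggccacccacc
Mrc1, intron 1, rank 85, chr2:14235473-14235573, plus strand: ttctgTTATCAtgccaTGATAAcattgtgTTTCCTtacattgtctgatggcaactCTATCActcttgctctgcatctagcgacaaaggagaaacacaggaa
Clec4g, inner start site, rank 3518, chr8:3717666-3717766, minus strand: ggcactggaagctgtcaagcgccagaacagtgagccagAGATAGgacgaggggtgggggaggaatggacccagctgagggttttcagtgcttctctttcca
Fcgr2b, downstream, rank 2598, chr1:170956639-170956739, minus strand: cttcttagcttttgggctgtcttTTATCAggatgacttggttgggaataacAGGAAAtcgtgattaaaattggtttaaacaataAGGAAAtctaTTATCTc
Scarf1, downstream, rank 2683, chr11:75535228-75535328, plus strand: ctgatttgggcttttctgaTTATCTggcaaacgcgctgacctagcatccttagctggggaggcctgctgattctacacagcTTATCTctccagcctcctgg
Oit3, upstream, rank 60, chr10:59443422-59443522, minus strand: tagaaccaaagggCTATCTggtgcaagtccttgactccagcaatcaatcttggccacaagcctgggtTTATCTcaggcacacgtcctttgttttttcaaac
Oit3, exon 5, rank 701, chr10:59430928-59431028, minus strand: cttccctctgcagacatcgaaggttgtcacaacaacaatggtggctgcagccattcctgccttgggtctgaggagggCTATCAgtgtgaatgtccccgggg
Gpr182, upstream, rank 29, chr10:127756208-127756308, minus strand: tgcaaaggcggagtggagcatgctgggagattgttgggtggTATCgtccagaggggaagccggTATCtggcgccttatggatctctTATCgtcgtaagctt
The first of these leaves out 3 bases of untranslated exon. The peak of Lyve1 and the rank 704 peak of Gpr182 lie in untranslated exon sequence and are not shown.

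Most of the 9 genes had several summits, and 5 of the 9 were near peaks at the top of the list. Over all protein-coding genes, 47.2% had a summit by the same rule. Of the 9 receptor genes, 6 had 5 or more summits, against 4.65% of all genes. A summit of rank 1000 or better lay near 5 of them, namely Gpr182, Oit3, Mrc1, Stab2 and Stab1, against 3.72% of all genes. Gpr182 had 8 peaks, Stab2 and Fcgr2b 7 each, Oit3, Mrc1 and Clec4g 5 each, and Stab1 4. Lyve1 and Scarf1 had 1 peak each, and 47.2% of all genes had at least that many. The counts were not adjusted for gene length. The 9 genes were chosen with earlier results of these data known, so these shares are a description and not independent support. The ranks of the 43 peaks ran from 29 to 21886, with a median of 5635.

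**Figure D1:**
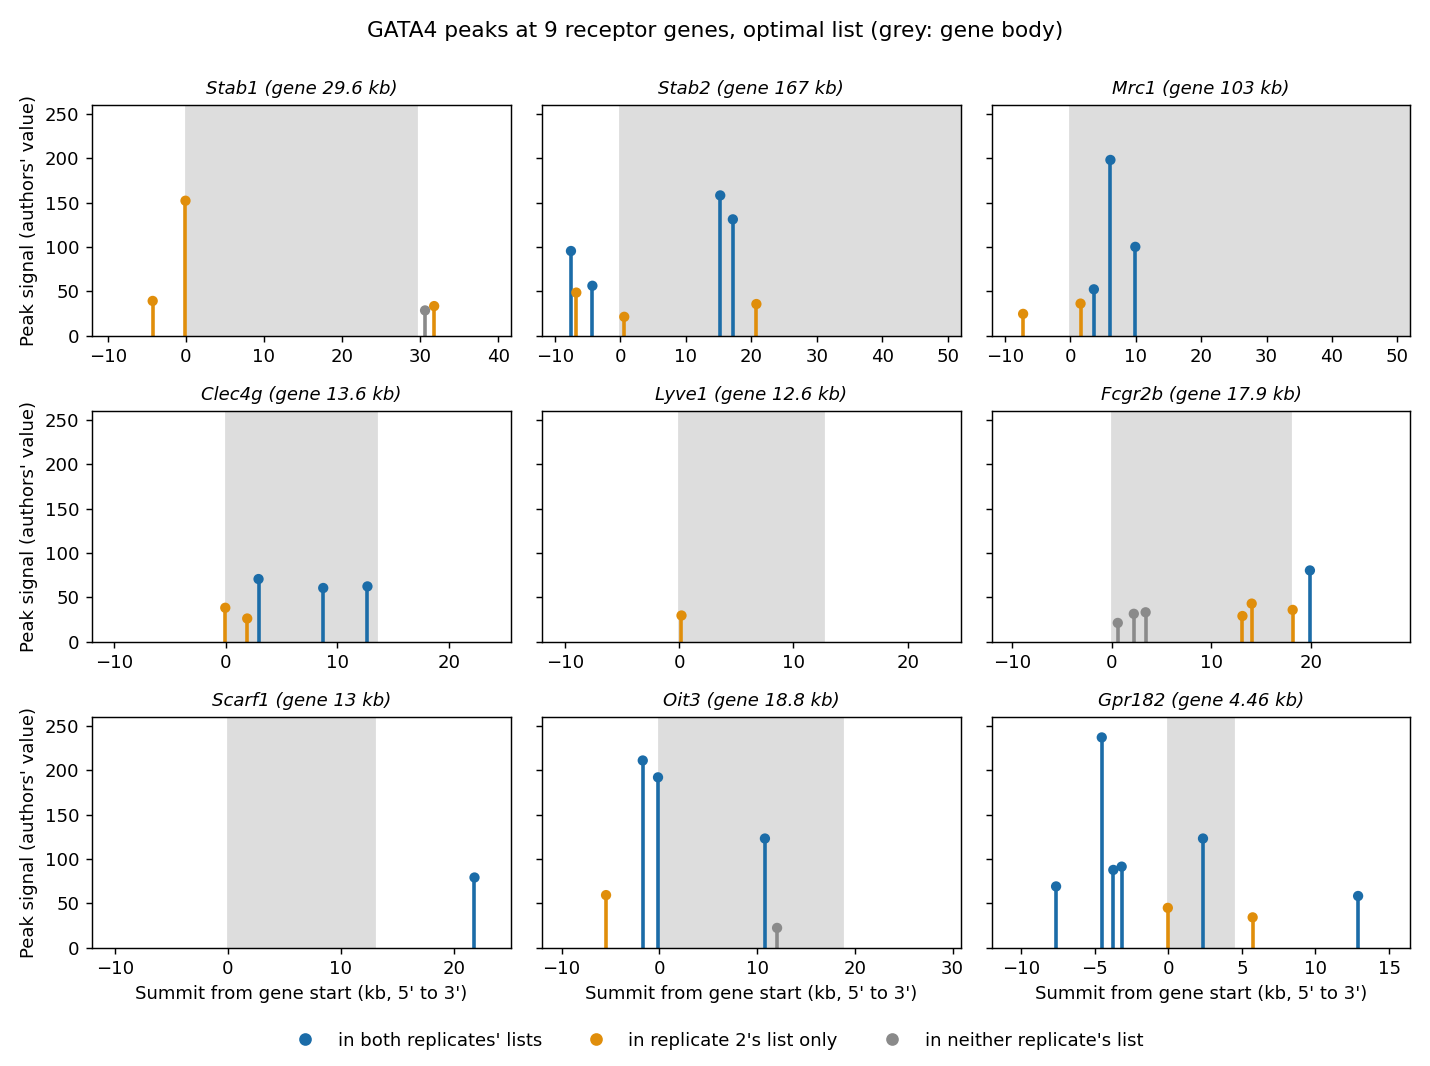
Peak signal in the optimal list (the authors' value) against the distance of the summit from the gene's start, in kb and in the direction of transcription, for each receptor gene, with the gene body in grey (Stab2 and Mrc1 are drawn only near their starts). The peaks of Stab2 and Mrc1 lie at the start of these long genes, those of Gpr182 mostly outside the gene, and the single peaks of Lyve1 and Scarf1 at the start and downstream.

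The stabilins are large endocytic receptors of the class H scavenger receptors, and stabilin-2 is a main receptor for clearing hyaluronan from blood. Stab2 (chr10:86841198-87008025, minus strand) carried 2 strong peaks in its intron 3, at chr10:86992633-86992935 (rank 253) and chr10:86990697-86990936 (rank 555). They lay 15246 and 17175 bp inside the gene, and a weaker peak in the same intron ranked 12192. Another 3 peaks lay upstream, at 4296, 6754 and 7570 bp from the start site, with ranks of 5635, 7369 and 1625. The start site itself had only a weak peak, 575 bp inside the gene (rank 21837). Of the 7 peaks, 6 had WGATAR within 50 bp of the summit and 5 had MGGAAR. The gene thus held its strongest signal inside and upstream, not at its start site.

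Replicates ranked the strong Stab2 peaks differently. Ranks by replicate were taken in the relaxed lists, which hold 299786 and 299828 peaks and include background. The rank 253 peak stood at 1878 in replicate 1 and at 141 in replicate 2. The rank 555 peak stood at 645 and 613. Both peaks were in both replicates' own lists, but replicate 1 placed the second above the first.

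Stab1 (chr14:31139013-31168641, minus strand) had the opposite layout. Its strongest peak, chr14:31168560-31168806 (rank 303), lay 48 bp upstream of the start site, where the whole peak had no WGATAR. A peak 4250 bp upstream, in an intron of Nisch, ranked 10545. Both remaining peaks lay beyond the 3′ end of Stab1, in introns of Nt5dc2, with ranks of 13430 and 16635 and with the start site of Nt5dc2 nearer than that of Stab1. None of the 4 was in replicate 1's list. The start-site peak stood at 4889 in replicate 1's relaxed list and at 169 in replicate 2's, and it was in the conservative list. Of the replicates' own lists, only replicate 2's held peaks of Stab1.

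Lyve1, which encodes a hyaluronan receptor shared by lymphatic and sinusoidal endothelium, had the lowest signal when each gene's strongest peak was compared. Its single peak, chr7:110862859-110863218, lay in the untranslated part of exon 1, 200 bp from the start site, and ranked 15175. The window had no WGATAR, although the whole peak had 1 copy, 74 bp from the summit, and it had 1 MGGAAR. The peak was absent from replicate 1's list and from the conservative list. It stood at 59482 in replicate 1's relaxed list, with a summit 180 bp away, and at 15492 in replicate 2's.

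The mannose receptor gene Mrc1 (chr2:14229392-14332057, plus strand), whose product binds mannose-ended glycoproteins and collagen, also carried its signal in introns. The peak at chr2:14235385-14235657 (rank 85) lay in intron 1, 6131 bp from the start site, and had 3 copies of WGATAR. It stood at 91 and 145 in the replicates' relaxed lists. Intron 2 held the peak of rank 1398, at 9937 bp, and intron 1 held peaks of rank 6430 and 11965. A peak 7213 bp upstream ranked 19543. No peak of Mrc1 lay within 1 kb of its start site. The 4 intronic peaks each had WGATAR, and the upstream one did not.

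Stab2 spans 167 kb and Mrc1 103 kb, and their summits inside the gene clustered near the start. All 4 such summits of Stab2 lay within 20.8 kb of the start, the first 12.5% of the gene. All 4 of Mrc1 lay within 9.94 kb, the first 9.68%. Over all genes longer than 50 kb, 32.6% of the summits inside the gene lay in the first 25% of the gene. This comparison was chosen after the positions were seen.

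Clec4g encodes the sinusoidal lectin LSECtin, which binds glycans with its C-type lectin domain. Its 5 peaks spread over the gene (chr8:3707064-3720651, minus strand) at moderate ranks. The strongest, chr8:3717536-3717895 (rank 3518), lay 163 bp from an inner start site, and the peak 50 bp upstream of the outer start site ranked 10930. The peaks of rank 4604 and 4897 lay toward the 3′ end of the annotated gene, beyond the end of the transcript used to number its exons, and the remaining peak ranked 18406. In replicate 1's list were 3 of the 5, those of rank 3518, 4604 and 4897. Both start-site peaks had WGATAR.

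Fcgr2b encodes the inhibitory Fc receptor that sinusoidal endothelium uses to remove small immune complexes, and which B cells and macrophages also carry. The gene (chr1:170958617-170976547, minus strand) had 7 peaks, but only the strongest was in both replicates' lists. This peak, chr1:170956509-170956868 (rank 2598), lay downstream of the gene, 19438 bp from its nearest start site, with no other protein-coding gene within 10 kb. It had 2 WGATAR and 2 MGGAAR, and it stood at 1126 in replicate 1's relaxed list and at 3414 in replicate 2's. The 5 peaks inside the gene ranked from 9021 to 21886, and 3 of them were in neither replicate's list. Close to the 3′ end of the gene lay the peak of rank 12074.

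Scarf1, the gene of a class F scavenger receptor of endothelial cells that binds modified lipoproteins, had no peak inside the gene. Its single linked peak, chr11:75535256-75535378 (rank 2683), lay downstream, in an intron of Slc43a2 and 3166 bp from a start site of that gene. The window had 2 copies of AGATAA, 1 of them inside the called peak, and no MGGAAR. It was in both replicates' lists, at 2012 and 3468 in the relaxed ones. Nothing in the lists says which of these neighbours it belongs to.

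Oit3, whose product is a zona pellucida domain protein made by the liver, had the most peaks of high rank. The peak of rank 60 (chr10:59443343-59443603) lay 1694 bp upstream of its start site, and that of rank 100 lay at its promoter. The peak of rank 701 (chr10:59430848-59431079), had its summit in coding exon 5 of 9. The replicates placed these peaks alike: at 69 and 90, at 86 and 168, and at 448 and 882 in the relaxed lists of replicates 1 and 2. Each had WGATAR within 50 bp. The other peaks lay in an exon of Mcu, 5448 bp upstream (rank 5088), and in intron 5 (rank 21154), and neither had WGATAR.

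Gpr182, the gene of an atypical chemokine receptor of sinusoidal and lymphatic endothelium, is short (chr10:127747276-127751732, minus strand) and had the strongest peak of the set. This peak, chr10:127756090-127756435 (rank 29), lay 4526 bp upstream of Gpr182, and a start site of Rdh1 was nearer, at 3463 bp. It stood at 79 and 32 in the replicates' relaxed lists. Further upstream peaks ranked 1823, 2045 and 3680, the last of them 358 bp from a start site of Rdh1. The untranslated part of the last exon held the peak of rank 704, and the peak 36 bp from the start site ranked 8397. Downstream, a peak in an exon of Zbtb39 ranked 12926 and one 702 bp from a start site of Zbtb39 ranked 5263. All but the peaks of rank 8397 and 12926 were in both replicates' lists.

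**Figure D2:**
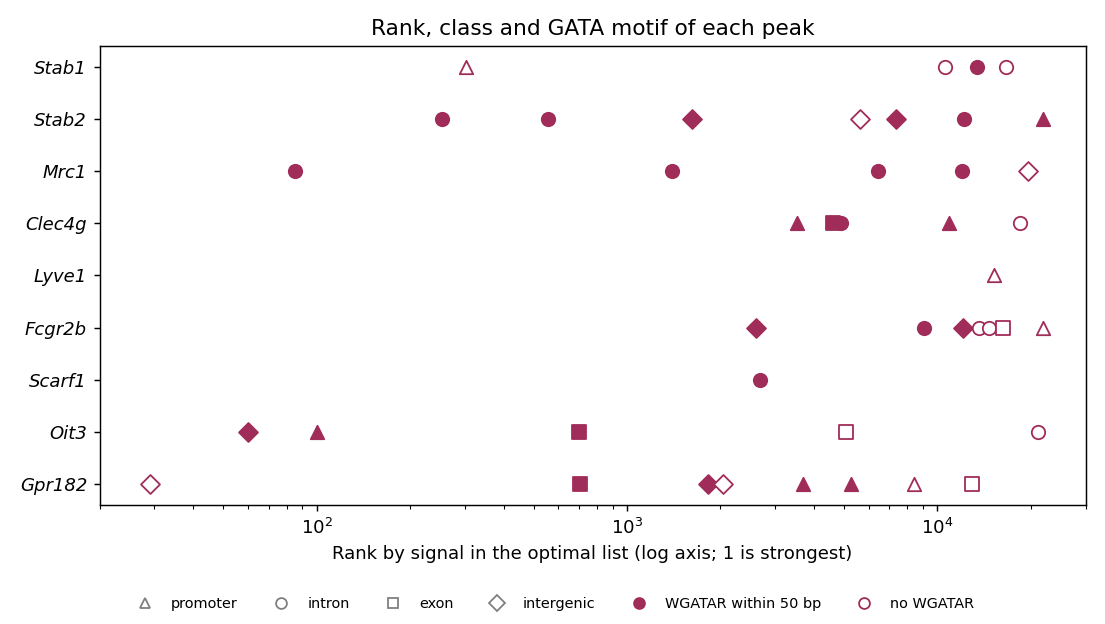
Rank of every peak by signal in the optimal list (log axis, 1 is strongest) for each receptor gene, with the marker giving the peak's class and filled markers those with WGATAR within 50 bp of the summit. Gpr182, Oit3 and Mrc1 reach rank 100 or better, and Gpr182's rank 29 and Stab1's rank 303 peaks are the open markers among the 9 peaks of rank 1000 or better.

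Replicate 1's shorter list held 21 of the 43 peaks (48.8%), against 17.0% of all peaks of the optimal list. Replicate 2's held 38 (88.4%), against 82.5%. Both held 21, against 16.3%, so every receptor peak in replicate 1's list was also in replicate 2's. A further 17 were in replicate 2's alone and 5 in neither. The conservative list, which asks for reproducibility between the replicates, held 25 (58.1%), against 38.2%. The peaks in both lists ranked from 29 to 6430, with a median of 1823, and the other 22 from 303 to 21886, with a median of 13178. The peaks seen in both replicates were thus mostly the stronger ones of the optimal list.

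By gene, 7 of the 9 had a summit in replicate 1's list, all but Stab1 and Lyve1, against 11.3% of all genes. In replicate 2's list all 9 had one, against 51.4%. In the conservative list 8 had one, all but Lyve1, against 21.7%. In the relaxed lists, 38 of the 43 peaks (88.4%) were found in both replicates, against 72.0% of all peaks. The Spearman rho between the replicates' ranks was 0.80 over these 38 and 0.47 over all peaks found in both. These values describe peaks that share both libraries and were called on pooled reads as well. The receptor peaks were also stronger than the list, with a median signal of 56.1 against 35.8, and no comparison at matched rank was made. The shares held by each list and these values thus do not set like beside like. The median summit lay 28 bp from the optimal one in replicate 1 and 4 bp in replicate 2.

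**Figure D3:**
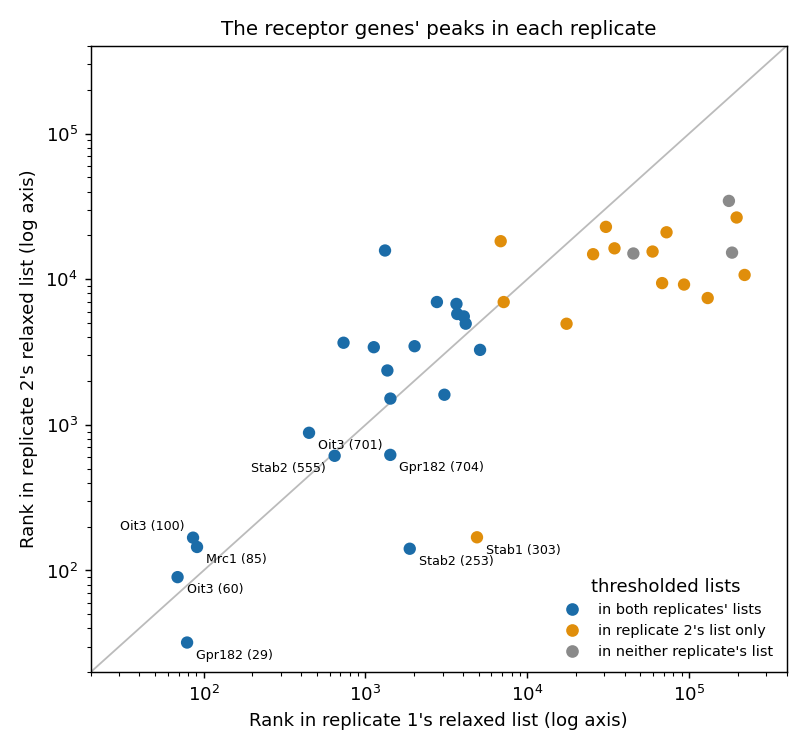
Rank of 38 receptor peaks in the relaxed lists of replicate 1 and replicate 2 (log axes), coloured by the thresholded lists that hold them, with the optimal rank printed for peaks of rank 1000 or better. The strongest peaks of Oit3, Mrc1 and Gpr182 stand nearer the diagonal, while the strongest peaks of Stab1 and Stab2 rank far better in replicate 2.

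Of the 43 peaks, 10 (23.3%) lay within 1 kb of a start site, against 21.6% of all peaks, so the receptor genes' share was near the background. Introns of any gene held 17 (39.5%), against 40.4%. Exons held 6 (14.0%), against 2.33%, namely in Oit3, Gpr182, Fcgr2b, Clec4g, Mcu and Zbtb39. Intergenic sequence held 10 (23.3%), against 35.7%. The receptor peaks were picked for lying in a gene or within 10 kb of it, whereas all peaks include more distant ones. The shares of the classes are thus not like for like, and the part of this rule in the differences was not tested. Relative to the receptor gene itself, 15 summits lay upstream, 14 in an intron, 7 downstream, 3 in a coding exon and 2 in an untranslated exon. The remaining 2 were those in Clec4g beyond the end of the transcript used. The nearest start site was the receptor gene's own for 37, and 21 were also within 10 kb of another protein-coding gene. The promoter peaks had their best rank at Oit3, at 100, and their median was 6830.

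WGATAR lay within 50 bp of 26 of the 43 summits (60.5%), against 52.8% of all peaks. In windows 500 bp to each side its share was 17.4%, against 16.0% around all peaks. Within 25 bp the order turned, with 27.9% of the receptor summits against 34.4% of all, so the receptor genes' share of WGATAR was near the background. The words were AGATAA at 15 sites, AGATAG and TGATAA at 9 each and TGATAG at 4. Peaks in both replicates' lists had the motif in 18 of 21 cases, against 75.4% of all such peaks. The others had it in 8 of 22, against 48.4%. Among promoter peaks 6 of 10 had it, against 25.7% of all promoter peaks. The 6 include the peaks of rank 3680 and 5263, which lay at start sites of Rdh1 and Zbtb39 and not of a receptor gene. The median GC content was 51% in the windows of the 10 promoter peaks and 63.4% in all promoter windows, and its part in the difference was not tested.

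Among the 9 peaks of rank 1000 or better, 7 had WGATAR, against 84.7% of all such peaks. The exceptions were the strongest peaks of Gpr182 and Stab1, which had none in the whole peak. The shorter core GATA, searched after this was seen, occurred 3 times in the Gpr182 window and 1 time in the Stab1 window. It lay within 50 bp of 33 of the 43 summits, against 67.8% of all summits and 35.9% of all flanking windows. A match is a description of the letters and not a measured site, and no match says only that these letters are not in the window.

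MGGAAR lay within 50 bp of 28 of 43 summits (65.1%), against 46.0% of all peaks. Within 100 bp it lay at 86% of the receptor summits and 65.8% of all. Within 25 bp the shares were 32.6% and 27.3%, and the longer CMGGAAR did not stand above the list, at 23.3% against 23.7%. In the flanking windows the share of MGGAAR was 29.1%, against 25.6%. Both motifs occurred in 16 windows (37.2%), against 23.2%. WGATAR alone occurred in 10 windows, MGGAAR alone in 12 and neither in 5. Unlike WGATAR, MGGAAR was at least as common in receptor peaks outside replicate 1's list (15 of 22) as in those of both lists (13 of 21). This split of MGGAAR was not set beside the same split over all peaks, so it may not be particular to the receptor genes. CAGCTG, an E-box bound by TAL1 and its relatives, occurred in 2 windows (4.65%), against 7.68%, and the AP-1 motif TGASTCA (S stands for C or G) in 2 (4.65%), against 2.45%.

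**Figure D4:**
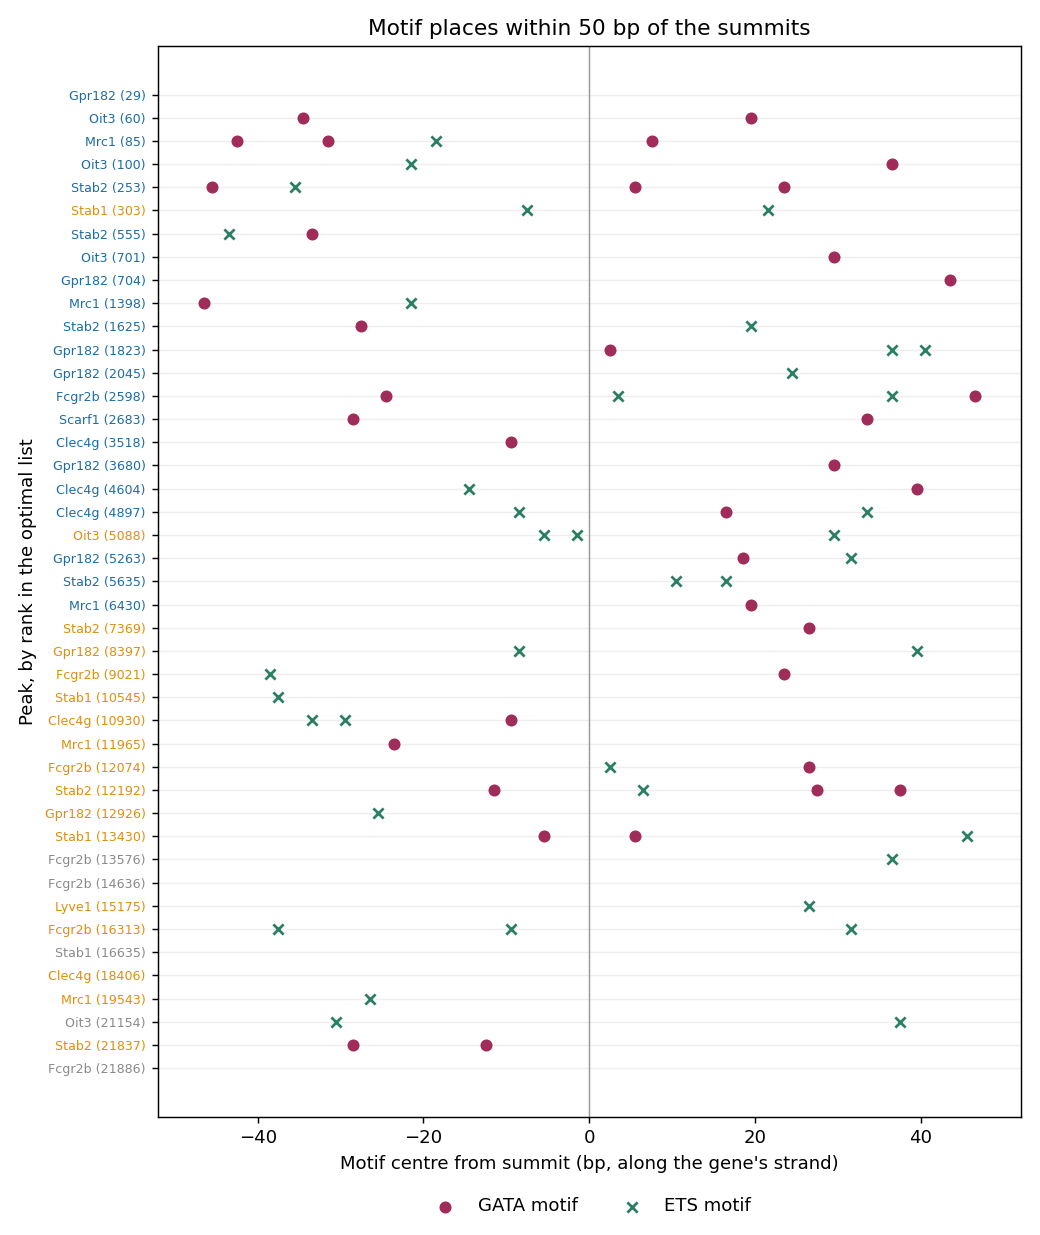
Centres of GATA motifs (WGATAR, circles) and ETS motifs (MGGAAR, crosses) within 50 bp of each of the 43 summits, in bp along the gene's strand, with peaks in order of optimal rank and names coloured by the replicates' lists (blue both, orange replicate 2 only, grey neither). GATA motifs crowd the upper rows and the blue names, while ETS motifs run through all rows.

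In the 16 windows with both motifs, the closest pair was 4 to 56 bp apart, with a median of 16 bp. Both strong intronic peaks of Stab2 and the downstream peak of Fcgr2b shared 1 arrangement, AGGAAANNNNTTATCT, in which the motifs face each other on opposite strands 4 bp apart. The pattern can be read in the sequences printed above, in the rank 253 window on the other strand. It was noticed there and then searched in all windows on both strands. It occurred at 18 of the 24050 summits (0.0748%) and in 2 of 48100 flanking windows. The 3 receptor peaks had the best ranks of the 18, but the printed windows were picked by rank, so this order is not a separate result. With any WGATAR and MGGAAR facing each other at this gap, the same 3 receptor peaks were found (6.98% of the 43), against 0.266% of all peaks. The gap and orientation were taken from these 3 peaks, so the shares cannot show that the arrangement is more common at the receptor genes. Of these 3 peaks, 2 lie in the same intron. Among 52 arrangements and gaps up to 12 bp, this one was the tenth most frequent over all peaks.

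RefSeq promoter sequences of 300 bases across the start site, on GRCm38, were at hand for 5 of the 9 genes: Clec4g, Fcgr2b, Mrc1, Stab1 and Stab2. WGATAR occurred in those of Clec4g and Fcgr2b, with 1 copy each, against 29.8% of all RefSeq promoters in the table. MGGAAR occurred in all 5, with 1 to 4 copies, against 64.7%. At Stab1, Stab2 and Mrc1 these 300 bases thus held MGGAAR without a WGATAR. The peaks with WGATAR described above lay in introns of Mrc1, and in introns and upstream of Stab2. Among them was the weak Stab2 peak (rank 21837) 575 bp inside the gene. It had 2 copies of WGATAR and counts as a promoter peak by the 1 kb rule.

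Genes related to the receptors were counted by the same rule, by which 47.2% of all protein-coding genes had a summit and 3.72% had one of rank 1000 or better. Of 14 other surface genes of sinusoidal endothelium, 13 had a summit and 5 had one of rank 1000 or better. The strongest lay near Plxnc1 (rank 61), a semaphorin receptor gene, Tek (rank 144), the angiopoietin receptor gene, Eng (rank 248), which encodes endoglin, and Kdr (rank 410), a receptor gene for vascular endothelial growth factor. The start site nearest to the Plxnc1 peak was one of Cep83, 112416 bp away. Of 18 genes of related receptor families, 7 had a summit and none ranked 1000 or better. The best of these were Ackr2 (rank 2700), Fcgr4 (rank 3819), Ackr1 (rank 4169) and Pla2r1 (rank 5387).

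Of 16 other scavenger receptor genes 10 had a summit, led by Scarb1 (rank 1148), Cxcl16 (rank 2188), Ager (rank 2377) and Msr1 (rank 2489). The Ager peak lay 37 bp from a start site of Agpat1, and the start site nearest to the Cxcl16 peak was one of Zmynd15. Hepatocyte endocytic receptor genes had one in 8 of 10 cases, with Insr (rank 769) first. Of 12 Kupffer cell surface genes, those of the resident liver macrophages, 2 had a summit, Msr1 and Siglec1 (rank 7841), and 5 had one in replicate 2's list. Some genes stand in more than 1 of these lists, Msr1 among them. The counts describe these lists of genes and were not tested against each other.

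**Figure D5:**
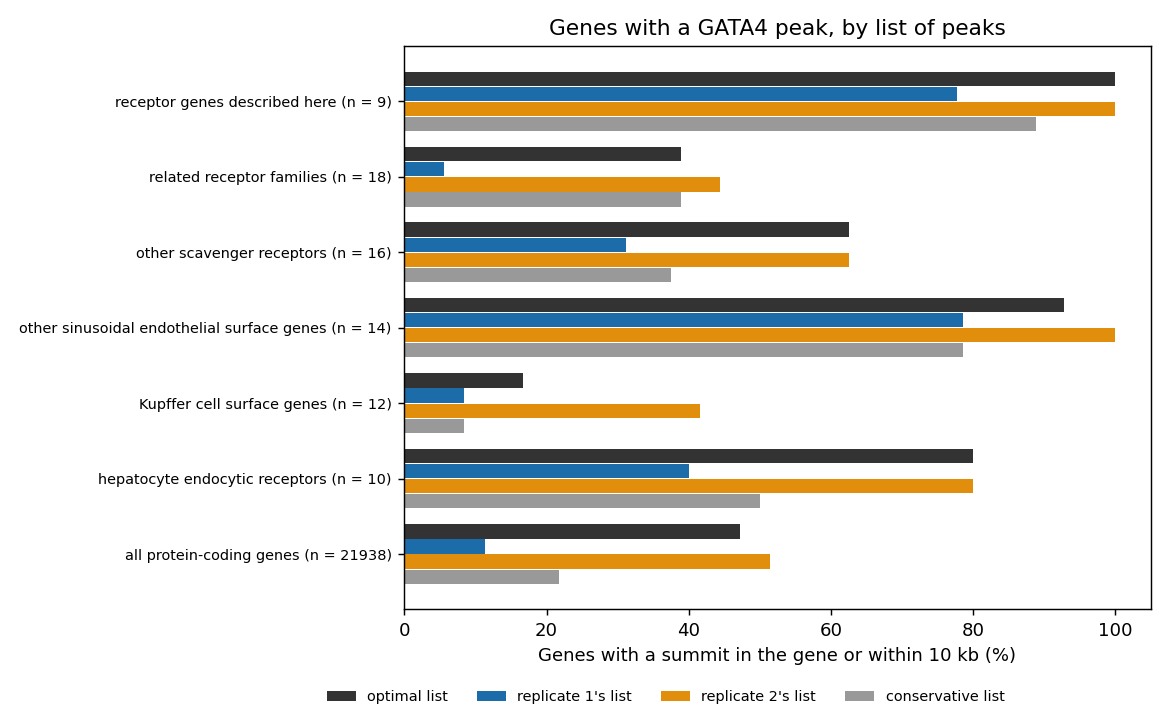
Share of genes (%) that hold a summit or have one within 10 kb, in the optimal, replicate 1, replicate 2 and conservative lists, for the 9 receptor genes, 5 related gene lists and all protein-coding genes. The receptor genes and the other sinusoidal endothelial surface genes have the longest bars in replicate 1's list, at 7 of 9 and 11 of 14 genes.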

How the data were processed

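GATA4 ChIP-seq peaks of 2 whole-liver samples in 1 group were used as deposited, in 9 lists on mm10. Column 7 of each list holds the peak's signal, a value of the authors' peak caller with no unit stated, used only to rank peaks within a list. Column 5 holds the authors' IDR (irreproducible discovery rate) score, 125 times −log2 of the IDR up to 1000, per the deposited values. Per the README tables that the authors deposited, the optimal and conservative lists derive from the relaxed lists of each replicate and of the pooled reads. The aligner and peak caller were not given in the sources used here. Depth is unknown, so no interval was computed.

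Summits (start plus offset) on chromosomes 1 to 19, X and Y, 24050 of 24083, were joined to GENCODE mouse release 21 protein-coding genes with Python 3.11.15, pandas 2.3.3 and numpy 2.4.6. Sequence came from GRCm38.p6, whose chromosomes are those of mm10, with pysam 0.24.0. A promoter meant a start site within 1 kb. Motifs were searched on both strands, and lists overlapped at 1 shared base. With 1 group there was no contrast and no test. All sample columns were matched (0 left unused). The code was tested on simulated data. Besides 2 peaks in untranslated exons, the sequence of 1 peak of rank 1000 or better is not reported here.

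The receptor genes and related lists were chosen with earlier results of these data known. The text names all 9 receptor genes and at most 4 genes of each related list, in order of their best rank, and their neighbours where a peak lay in or near one. Alternatives were other peak lists, links, promoter widths, windows, motifs and overlaps, each replicate's list alone, and the core GATA, which was added after seeing the data.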

Additional observations from a re-analysis of the deposited data

How the results depend on the processing

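Of 36 alternative counts, 28 stayed within 1.5 times of the value reported. All 9 receptor genes kept a summit with an IDR of 0.01, with the later run's pooled list and with a 25 kb link, and 8 with a 5 kb link. Leaving out 1 replicate gave 7 to 9 genes with a summit and 23 to 45 peaks, the low values with replicate 1's list alone. The conservative list gave 25 peaks. With start sites within 2.5 kb, 16 peaks lay at a promoter, and no share over all peaks is given for this width. A window of 25 bp left WGATAR at 12 summits and MGGAAR at 14. AGATAA alone lay at 14 (32.6%), against 27.2% of all peaks, and CMGGAAR at 10. The core GATA, added after seeing the data, lay at 33. Replicate 1's relaxed list, which includes background, held 38 of the peaks. The smaller windows and longer motifs hold fewer sequences by construction; for the replicates the cause was not tested. No paired analysis was possible because there is 1 group and no comparison between groups. Depth is unknown, so a peak missing from replicate 1's list was not detected there, which does not show that it is absent.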
